A study of Mus musculus with 13 samples.

Results

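Lysyl oxidases and collagen hydroxylases were followed in RNA-seq libraries of C2C12 myotubes. The group held 10 genes (Lox, Loxl1, Loxl2, Loxl3, Loxl4, P4ha1, P4ha2, Plod1, Plod2 and Plod3) of the 16382 genes in the deposited tables. It was chosen by the normalized counts of Lox, which were higher in every PEA library than in every CON library, so the Lox values of this contrast are described below with no test. C2C12 is a mouse myoblast line (genotype WT) that fuses into multinucleated myotubes in low-serum medium. Myotubes at day 8 of differentiation were given 10 μM palmitoylethanolamide (PEA), a fatty acid amide, or its solvent DMSO alone (CON), and were lysed for RNA after 24 h. There were 6 libraries per treatment, from duplicate wells in 3 repeats of the experiment. The study's methods treat the wells as technical and the 3 repeats as experimental replicates, but the labels do not tie wells to repeats. The p-values below therefore take the 6 libraries of a treatment as independent, measure a spread that is partly technical, and may be too small. The model is 1 cell line without other tissue cells, and such cultures also hold myoblasts that have not fused.

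Collagen chains are modified in the endoplasmic reticulum before they are secreted. Prolyl 4-hydroxylases, made of a catalytic alpha subunit (P4ha1, P4ha2 or P4ha3) and the shared beta subunit P4hb, hydroxylate prolines and so stabilise the triple helix, and the lysyl hydroxylases Plod1, Plod2 and Plod3 hydroxylate lysines that later take part in cross-links. Outside the cell, the copper enzymes Lox and Loxl1 to Loxl4 oxidise lysines of collagen and elastin to aldehydes, which react to form the cross-links that stiffen the matrix around muscle fibres.

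The catalytic metal sites of the members other than Lox, which was not compared at its site, are shown because they are conserved between the paralogs of each family, which bears on whether reads can be assigned to 1 gene. Each stretch is 39 coding bases, taken from GENCODE transcripts for GRCm39 and found through the longest open reading frame of the gene, with capitals at the bases that are the same in every gene of the set. In the copper site of the lysyl oxidases, which is rich in histidine codons and spans an exon junction in these genes, 24 of 39 bases were the same in Loxl1 (chr9:58200997-58201664, minus strand), Loxl2 (chr14:69919765-69926492, plus strand), Loxl3 (chr6:83026976-83027112, plus strand) and Loxl4 (chr19:42587240-42588338, minus strand). These coordinates include the intron between the exons.
Loxl1: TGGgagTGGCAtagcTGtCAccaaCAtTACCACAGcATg
Loxl2: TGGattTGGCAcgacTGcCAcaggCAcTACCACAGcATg
Loxl3: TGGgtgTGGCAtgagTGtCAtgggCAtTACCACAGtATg
Loxl4: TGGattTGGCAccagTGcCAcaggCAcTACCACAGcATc
Loxl2 and Loxl4 were the closest pair, with 36 of 39 bases the same, and Loxl1 and Loxl4 the most distant, with 26.

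The iron site of the hydroxylases lies within 1 exon in each gene. In the prolyl 4-hydroxylase alpha subunits, 30 of 39 bases were the same in P4ha1 (chr10:59201126-59201164, plus strand) and P4ha2 (chr11:54016604-54016642, plus strand).
P4ha1: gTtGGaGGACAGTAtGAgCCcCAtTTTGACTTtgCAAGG
P4ha2: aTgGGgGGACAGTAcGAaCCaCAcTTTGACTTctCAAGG
In the lysyl hydroxylases, 24 of 39 bases were the same in Plod1 (chr4:147997719-147997757, minus strand), Plod2 (chr9:92488862-92488900, plus strand) and Plod3 (chr5:137023832-137023870, plus strand).
Plod1: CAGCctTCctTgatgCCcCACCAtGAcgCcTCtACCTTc
Plod2: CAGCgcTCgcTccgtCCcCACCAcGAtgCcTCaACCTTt
Plod3: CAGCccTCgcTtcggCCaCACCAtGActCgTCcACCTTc
Each pair of paralogs shown differed at 3 or more bases. Over whole transcripts, Lox included, no stretch of 50 bases was shared between any members. The longest run shared by paralogs of 1 family was 32 bases, between Lox and Loxl1.

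The limits of assignment lay with other genes. Lox and P4ha1 shared no 50-base stretch with any other annotated gene. Of the 50-base stretches of Loxl2, 57.7% occurred in other genes, with 2299 of 5562 in Gm21451, which was not analysed here. Loxl3 shared 25.3% of its exon bases with Htra2 on the opposite strand, Loxl2 shared 17.1% with R3hcc1, and Plod3 shared 9.26% with Znhit1. The library kit does not mark strand, so reads from these stretches cannot be told apart, and the levels of Loxl2 and Loxl3 are uncertain to that degree. The neighbours themselves did not pass the test below (Htra2 at a log2 fold change of 0.13 ± 0.05 (SE), R3hcc1 at -0.07 ± 0.04 and Znhit1 at -0.05 ± 0.05, with adjusted p of 0.114, 0.338 and 0.531, edgeR).

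Values are deposited normalized counts, which are estimated counts per gene divided by 1 factor per library. Libraries held 12354845 to 50397444 estimated counts, with CON replicate 1 deeper than the next library by a factor of 2.25. Even the least abundant member, Loxl4, had at least 78 estimated counts in every library. Differences were tested with edgeR (quasi-likelihood test, Benjamini-Hochberg adjustment) over 13142 genes, of which 11.0% were called at an adjusted p below 0.05 (829 higher, 623 lower), and 4.34% did not overlap between the groups. All 11 myotube markers passed the filter on low counts, with a summed level of 138220 to 211450 in CON and 146445 to 164840 in PEA. All 11 had a log2 fold change below 0 (median -0.22), 7 at an unadjusted p below 0.05 (27.4% of all genes), and 2 of them (Myh8 and Tnnt3) were called lower by edgeR. Ptprc (leukocytes), Thy1 (fibroblasts), Pecam1, Cdh5 and Kdr (endothelium) and Plin1 (adipocytes) stayed at or near 0, with no value above 8.62. Other markers on these lists were detected, with Csf1r at up to 16.5 and Cd68 at 51.1 to 134 normalized counts, and Dcn, Pdgfra and Lum of the fibroblast list at means of 2537, 677 and 31.3 in CON. In bulk RNA, fewer cells of a type and less RNA per cell cannot be told apart.

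Of the members, Loxl3 rose and P4ha1 fell slightly, and the other tested members did not pass. That is 2 of the 9 members other than Lox, against 11.0% of all genes. The median log2 fold change of these 9 members was 0.05, beside 0.01 for all genes tested. The plot of the members by library shows each value.

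**Figure D1:**
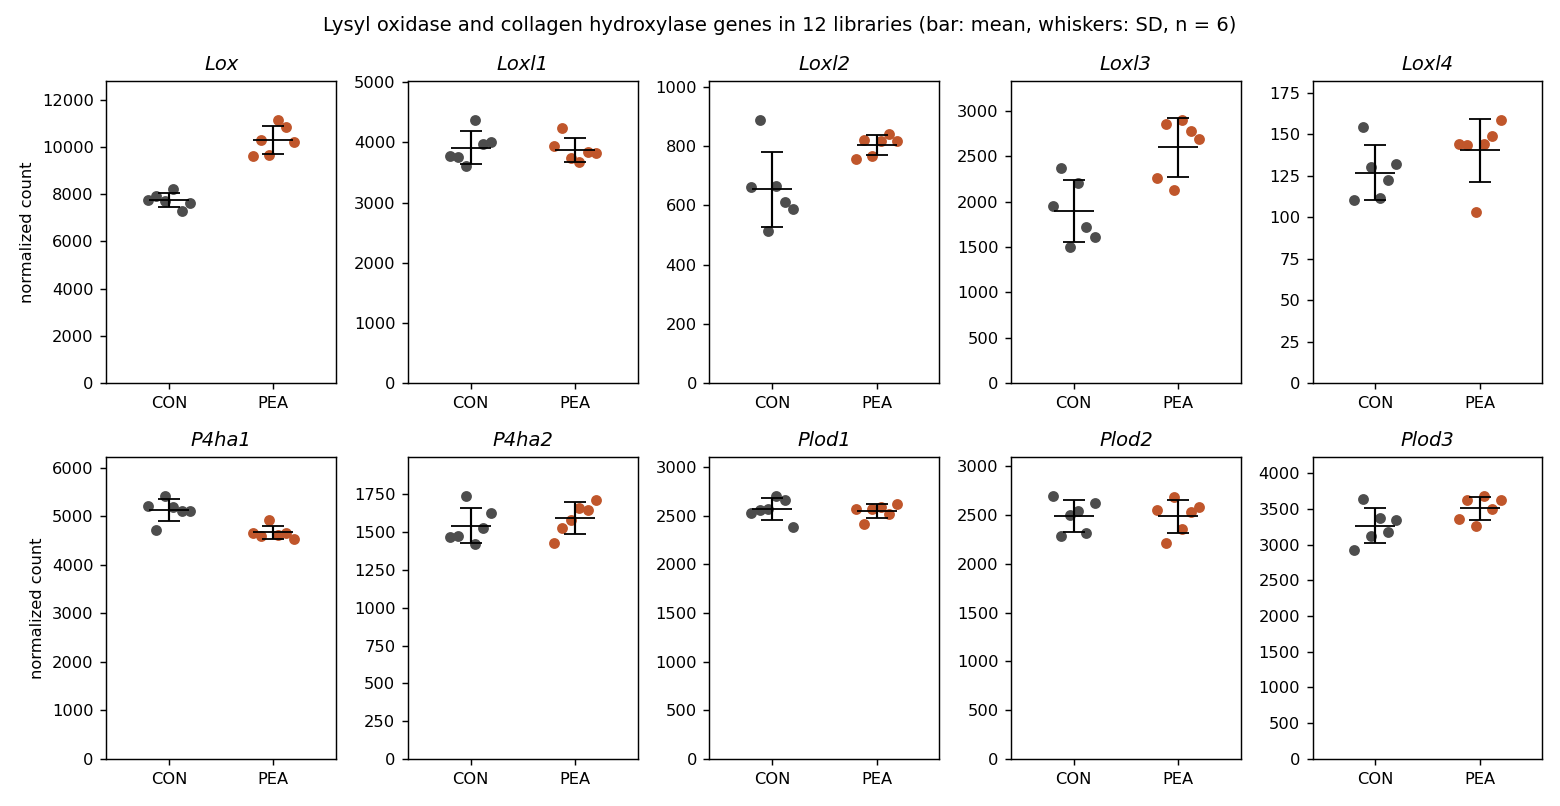
Normalized counts (y axis, from 0, a scale per gene) of the 10 members in 6 CON (grey) and 6 PEA (orange) libraries, with each point a library, the bar the mean and the whiskers the SD. The Lox points of the groups are apart (CON up to 8211, PEA from 9634), Loxl3 is shifted up with overlap, P4ha1 is shifted down slightly, and Loxl1, Plod1 and Plod2 lie at the same height in both groups.

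Lox (chr18:52649136-52663110, minus strand) encodes lysyl oxidase, the main collagen cross-linking enzyme of the family. Its normalized count was 7280 at the lowest, 7728 at the median and 8211 at the highest in CON, and 9634, 10251 and 11119 in PEA. The groups did not overlap, and the lowest PEA library lay 17.3% above the highest CON library. The mean was 7748 ± 310 in CON and 10298 ± 605 in PEA (SD, n = 6 each), a log2 fold change of 0.41 ± 0.05 (SE), or 1.33-fold. As these values chose the list, no p is given, and the SE cannot be read as a test. CON replicates 2 and 3, which stood at either end of the CON range for Loxl2 and Loxl3, were ordinary for Lox (7918 and 7719).

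Loxl1 (chr9:58195014-58220495, minus strand), which acts mainly on elastin, was the other abundant lysyl oxidase. Its normalized count was 3603 at the lowest, 3875 at the median and 4365 at the highest in CON, and 3682, 3827 and 4234 in PEA. The ranges lay on top of each other. The log2 fold change was -0.01 with a 95% interval of -0.12 to 0.10 (adjusted p = 0.913, edgeR). The difference from Lox was not tested.

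Loxl3 (chr6:83011152-83029543, plus strand) carries scavenger receptor domains beside its oxidase domain, as do Loxl2 and Loxl4. Its normalized count was 1504 at the lowest, 1836 at the median and 2375 at the highest in CON, and 2127, 2736 and 2897 in PEA. The groups overlapped, with 4 of 6 PEA libraries above the highest CON library and CON replicates 2 and 4 within the PEA range. The mean rose from 1896 ± 345 to 2603 ± 326 (SD, n = 6 each), a log2 fold change of 0.46 ± 0.11 (SE; adjusted p = 0.0130, edgeR). The call held with each library left out in turn (adjusted p = 0.00182 to 0.0355) and under the 7 other fits tried (0.000554 to 0.0134). Htra2, with which Loxl3 shares exon bases, had 1746 to 1968 normalized counts in CON and 1870 to 2241 in PEA.

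Loxl2 (chr14:69846209-69933283, plus strand) gave values in the same direction that missed the threshold. Normalized counts of Loxl2 were 513 at the lowest, 636 at the median and 886 at the highest in CON, and 758, 816 and 840 in PEA. The PEA libraries lay close together above 5 of the 6 CON libraries, and CON replicate 2 stood above all of them. The log2 fold change was 0.30 ± 0.10 (SE), with a 95% interval of 0.10 to 0.50 and an adjusted p of 0.0539 (edgeR). Without CON replicate 2 it was 0.40 with an adjusted p of 0.000819, the only 1 of 12 fits with a single library left out that passed. Without any other single library the threshold was missed, with an adjusted p of up to 0.116. Over the 7 other fits the adjusted p ranged from 0.0260 to 0.0578, and 4 of them passed, DESeq2 (0.0290) among them. The lowest came from the fit with the replicate number as a block, although those numbers did not pair the libraries.

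The CON libraries that set this spread also differed in markers of other cell states. CON replicate 2 had the highest and CON replicate 3 the lowest level of Loxl2 and Loxl3, and the same libraries stood at the ends of the summed level of 6 markers of unfused or cycling myoblasts, which was 3230 to 5999 in CON and 5481 to 6451 in PEA. In that list Mki67, Top2a and Ccnb1, genes of dividing cells, rose in PEA, and Pax7, Myf5 and Myod1 did not pass the test. The summed level of the 4 fibroblast markers in the tables was 1996 to 4416 in CON and 3895 to 4941 in PEA, most of it Dcn, which was called higher. The other 2 tested markers of that list were not called, Pdgfra at a log2 fold change of 0.25 and Lum at -0.77 (adjusted p = 0.106 and 0.0851, edgeR), and Thy1 had no value above 8.62. CON replicates 2 and 3 were also the highest and lowest CON libraries for the summed myotube markers. The part of these markers in the Loxl3 result was not tested. With CON replicates 2 and 3 both left out, the log2 fold change of Loxl3 was 0.47 (adjusted p = 0.00327) and that of Loxl2 0.35 (adjusted p = 0.00111, edgeR). In that fit 3 of the 9 members were called and 13.2% of all genes. Leaving out both ends of the CON range narrows the CON spread of these genes. The fit was also added after seeing the data, so its p-values cannot be read as support.

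**Figure D2:**
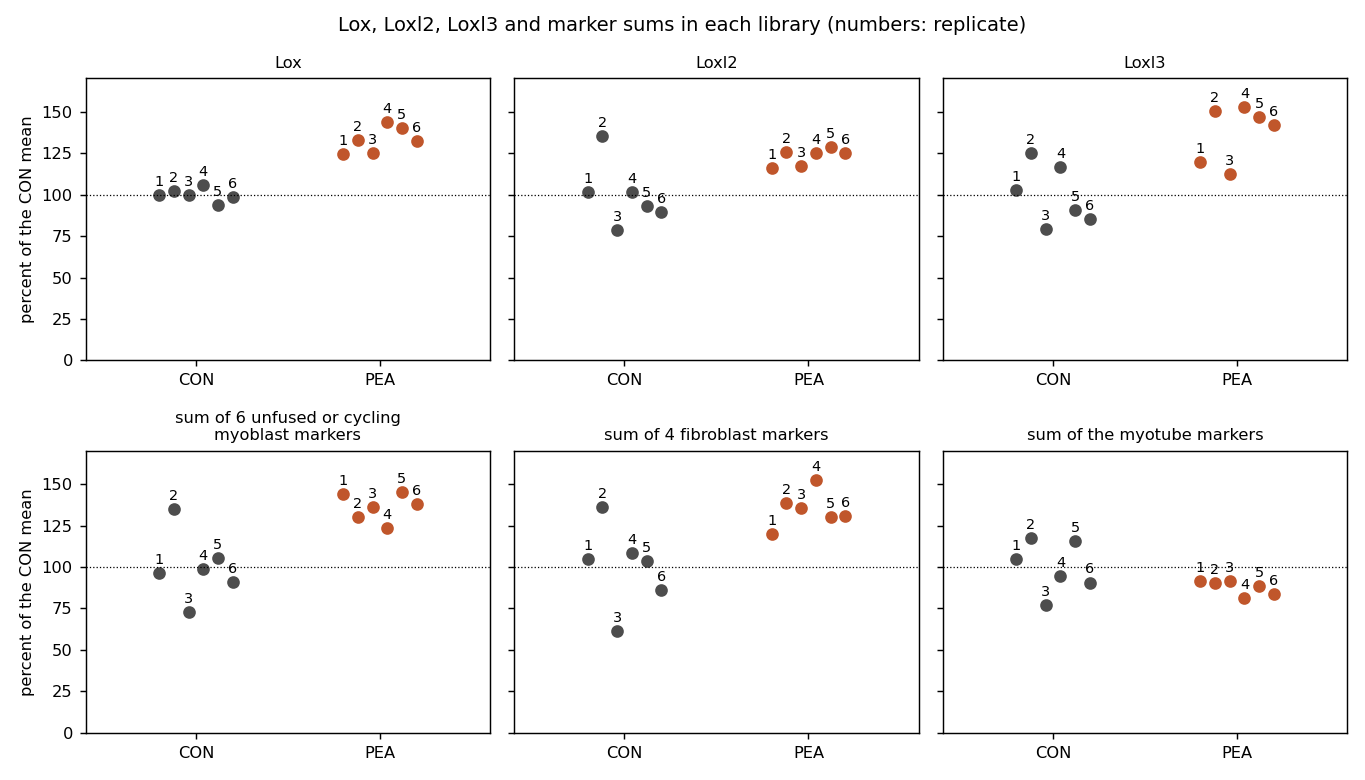
Level in each library as a percent of the CON mean (y axis, from 0) for Lox, Loxl2, Loxl3 and the summed normalized counts of 3 marker lists, with CON in grey, PEA in orange and the replicate number beside each point. CON replicate 2 is at 136% and CON replicate 3 at 78.5% for Loxl2, at 135% and 72.8% for the myoblast markers, and at 102% and 99.6% for Lox.

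Loxl4 (chr19:42580711-42601252, minus strand) was the scarcest member. It had normalized counts of 110 at the lowest, 127 at the median and 155 at the highest in CON, and 103, 144 and 158 in PEA. PEA replicate 3 lay below every CON library PEA replicate 6 lay just above the highest, and the other 4 PEA libraries lay in the upper part of the CON range. The log2 fold change of 0.15 had a 95% interval of -0.11 to 0.42 (adjusted p = 0.466, edgeR), so that neither a rise within that interval nor its absence could be shown.

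P4ha1 (chr10:59159092-59209126, plus strand), the main catalytic alpha subunit of collagen prolyl 4-hydroxylase in most cells, was lower in PEA. Its normalized count was 4714 at the lowest, 5148 at the median and 5415 at the highest in CON, and 4541, 4633 and 4930 in PEA. Only 1 library of each group stood in the other group's range, CON replicate 2 at the low end and PEA replicate 3 at the high end. The mean was 5125 ± 231 in CON and 4666 ± 137 in PEA (SD, n = 6 each), a decrease of 8.83% or a log2 fold change of -0.13 ± 0.04 (SE; adjusted p = 0.0478, edgeR). This call was marginal. It held when CON replicate 2 (adjusted p = 0.0122) or PEA replicate 3 (0.0388) was left out and was lost, at 0.0701 to 0.106, without any other single library (CON replicate 1, 3, 4, 5 or 6, or PEA replicate 1, 2, 4, 5 or 6). Over the 7 other fits the adjusted p ranged from 0.0126 to 0.0644, and 5 of them passed.

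P4ha2 (chr11:53981553-54022494, plus strand), the second alpha subunit, did not follow it. Normalized counts of P4ha2 were 1422 at the lowest, 1503 at the median and 1738 at the highest in CON, and 1428, 1615 and 1714 in PEA, with full overlap. The log2 fold change was 0.05, with a 95% interval of -0.07 to 0.17 (adjusted p = 0.634, edgeR). Since a ratio within a library does not depend on how the library is scaled, the balance of the subunits was compared directly. The ratio of P4ha1 to P4ha2 normalized counts was 3.33 ± 0.23 in CON (3.12 to 3.65) and 2.94 ± 0.23 in PEA (2.65 to 3.27; SD, n = 6 each). The difference in log2 ratio was -0.18 (two-sided exact permutation test over 924 assignments, p = 0.0195, adjusted p = 0.0390 over the 2 ratios tested). With each library left out in turn, the difference ranged from -0.21 to -0.15 and its exact permutation p, adjusted over the 2 ratios, from 0.00866 to 0.0823. It was past 0.05 without CON replicate 1, 2, 4 or 5 or PEA replicate 2, 4, 5 or 6.

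P4ha3 (the third alpha subunit) moved the other way. It rose from 587 ± 55.3 normalized counts in CON (517 to 665, median 569) to 706 ± 62.4 in PEA (638 to 800, median 697; SD, n = 6 each), a log2 fold change of 0.27 ± 0.07 (SE; adjusted p = 0.0254, edgeR), with overlap between the groups. The call was lost without CON replicate 5 or 6 or PEA replicate 4 or 6, with an adjusted p of up to 0.0687. P4hb, the shared beta subunit that also serves as a protein disulfide isomerase, had a median level of 21785 normalized counts in CON against 20959 in PEA and did not pass the test (log2 fold change -0.05 ± 0.04 (SE), adjusted p = 0.488, edgeR).

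The 3 lysyl hydroxylases gave 0 calls in edgeR, DESeq2 or limma-voom, which called 11.0%, 14.5% and 12.4% of all genes, and 0 had an unadjusted p below 0.05 (27.4% of all genes). Plod1 (chr4:147991574-148021356, minus strand), which modifies lysines within the triple helix, had 2381, 2562 and 2700 normalized counts at the lowest, median and highest in CON and 2413, 2571 and 2619 in PEA. The log2 fold change of Plod1 was -0.01, with a 95% interval of -0.09 to 0.08 (adjusted p = 0.931, edgeR). Plod2 (chr9:92424119-92490494, plus strand) modifies the telopeptide lysines at which lysyl oxidases act, and had 2283, 2521 and 2694 in CON and 2211, 2540 and 2687 in PEA. For Plod2 the log2 fold change was -0.00, with a 95% interval of -0.12 to 0.11 (adjusted p = 0.983, edgeR). For both genes the ranges of the groups largely coincided.

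Plod3 (chr5:137015827-137025502, plus strand), which also transfers sugars to hydroxylysine, had 2928, 3259 and 3641 normalized counts at the lowest, median and highest in CON and 3259, 3557 and 3677 in PEA. Its groups overlapped, 5 of 6 PEA libraries lay above the CON median, and the log2 fold change of 0.11 had a 95% interval of -0.01 to 0.22 (adjusted p = 0.206, edgeR). The ratio of Plod2 to Plod1 was 0.975 ± 0.093 in CON and 0.976 ± 0.052 in PEA (SD, n = 6 each), with a difference in log2 ratio of 0.01 (two-sided exact permutation test, p = 0.935, adjusted p = 0.935 over the 2 ratios).

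**Figure D3:**
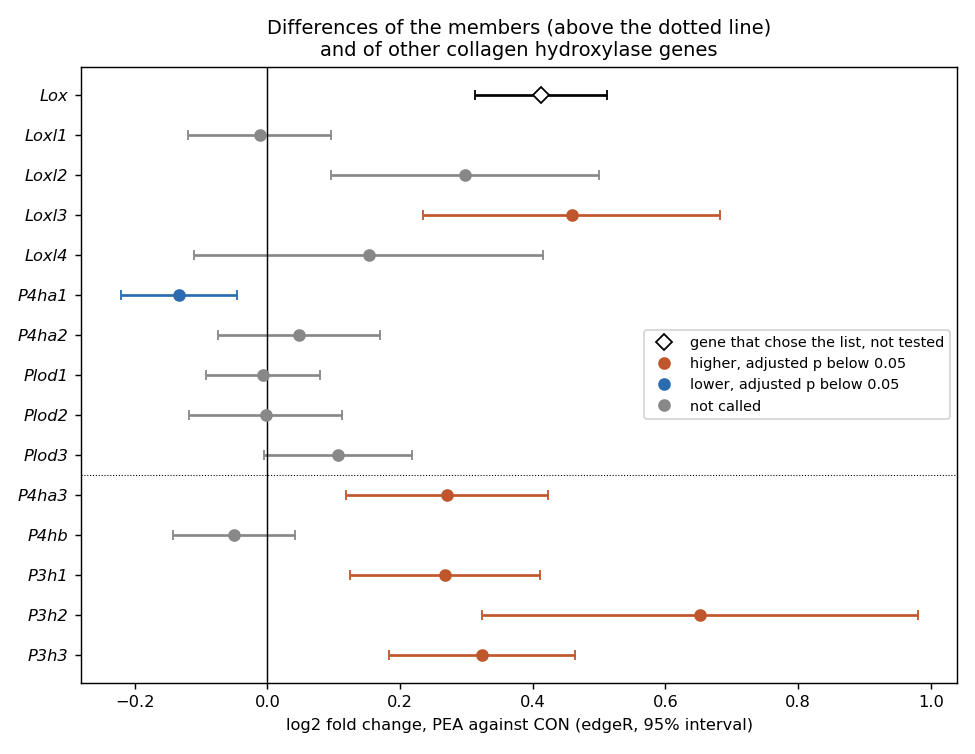
Log2 fold change of PEA against CON (x axis) with its 95% interval for the 10 members, above the dotted line, and for P4ha3, P4hb, P3h1, P3h2 and P3h3. P3h4 is not drawn. The open diamond is Lox, which chose the list and was not tested, so its interval cannot be read as a test. Orange marks genes called higher, blue P4ha1, called lower, and grey genes not called, among them Loxl2 at 0.30 with an interval that lies above 0.

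Levels were compared between genes per length, as normalized counts per kb of annotated exon. In CON, Lox stood highest at 1572 ± 62.8 per kb, followed by Loxl1 at 989 ± 67.9, P4ha1 at 791 ± 35.6, Plod3 at 525 ± 39.8, Loxl3 at 405 ± 73.7, Plod2 at 387 ± 25.5, Plod1 at 269 ± 11.8, P4ha2 at 177 ± 13.6, Loxl2 at 118 ± 23.0 and Loxl4 at 21.2 ± 2.72 (SD, n = 6). Each gene stood above the next in 6 of 6 CON libraries, except that Loxl3 and Plod2 did not differ beyond their spread (Loxl3 higher in 3 of 6), and that the ranges of Plod3 and Loxl3 overlapped. In PEA the order of the means was the same. There Loxl3, at 557 ± 69.7 per kb, stood above Plod2 in 6 of 6 libraries and overlapped with Plod3, above it in 3 of 6.

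Within the lysyl oxidase family, Lox made up 50.7% ± 1.7 of the summed level per kb in CON and 55.1% ± 1.3 in PEA (SD, n = 6), and Loxl1 31.9% ± 1.7 and 25.9% ± 1.7. Loxl3 made up 11.0% to 15.6% over the CON libraries and 12.9% to 15.6% over the PEA libraries, and Loxl2 and Loxl4 together the small rest. The summed level of the family was 3106 ± 176 per kb in CON and 3794 ± 196 in PEA. These shares contain the Lox values that chose the list and are given with no test. P4ha1 held 81.7% ± 1.0 of the summed level of both alpha subunits among the members in CON and 79.8% ± 1.3 in PEA. With the length of the longest annotated transcript in place of all exon bases, P4ha1 stood above Loxl1, Plod2 above Loxl3 and P4ha2 above Plod1 in CON, while Lox stayed first and Loxl2 and Loxl4 last.

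**Figure D4:**
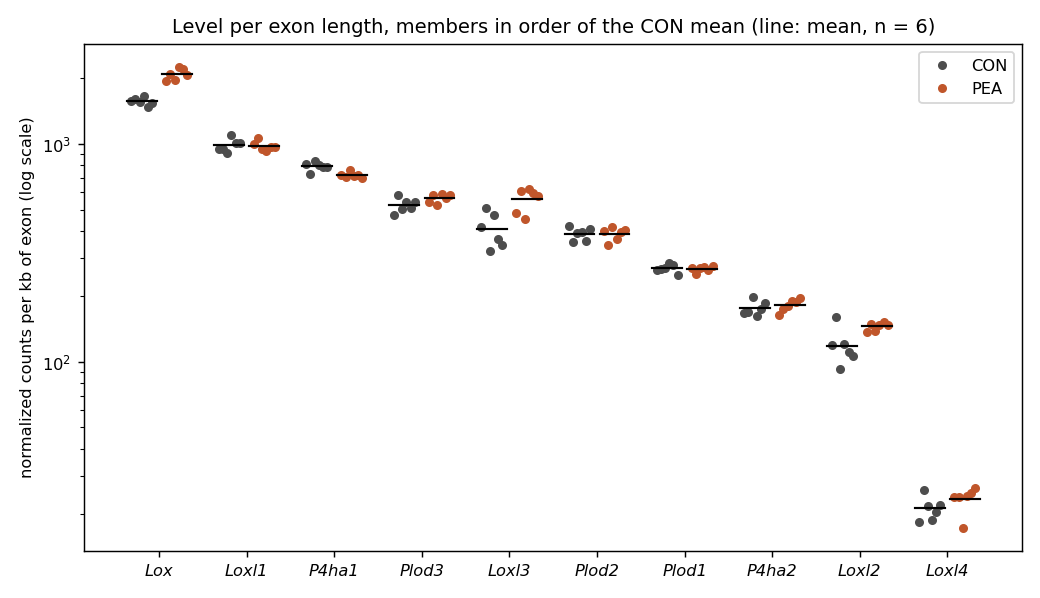
Normalized counts per kb of exon (y axis, log scale) of the 10 members in each CON (grey) and PEA (orange) library, ordered by the CON mean, with a line at each mean. Levels span from 21.2 per kb (Loxl4) to 1572 per kb (Lox) in CON, and the clouds of neighbours touch only for Plod3, Loxl3 and Plod2.

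The genes whose pattern over the 12 libraries was most like that of Lox were found by the mean absolute difference of log2 CPM, each gene centred on its CON mean. They were Zfp365 (0.05), Nptxr (0.06), Vdr (0.06, the vitamin D receptor), Galk2 (0.07, an N-acetylgalactosamine kinase) and Fam111a (0.07), beside a median of 0.28 over the other 13141 genes. Like Lox, each of these 5 genes was higher in every PEA library than in every CON library, which follows from how they were chosen. Vdr, for example, had 1837 to 2210 normalized counts in CON and 2452 to 2771 in PEA. Among the members, Loxl2 came nearest to Lox at place 225 (0.13), then Loxl3 at place 458 (0.15), and P4ha1 was the farthest at place 8467 (0.31). These places rest on the Lox values that chose the list, so a gene with a rise of like size ranks near Lox by construction. They are description alone.

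Other genes of collagen folding and modification showed 4 of 13 tested members called higher and none lower, with a list median log2 fold change of 0.07 (0.01 over all genes, of which 6.31% were called higher). Beside P4ha3 these were P3h1, P3h2 and P3h3, prolyl 3-hydroxylases, which modify single prolines of collagen. P3h4, also on the list, was not called (log2 fold change -0.01, adjusted p = 0.885, edgeR). P3h3 had 507 to 646 normalized counts in CON (median 550) and 653 to 770 in PEA (median 686), without overlap, a log2 fold change of 0.32 ± 0.07 (SE; adjusted p = 0.00675, edgeR). P3h2, a low gene, had 51.3 to 98.1 in CON (median 62.3) and 99.7 to 107 in PEA (median 104), also without overlap, a log2 fold change of 0.65 ± 0.16 (SE; adjusted p = 0.0149, edgeR). P3h1 had 972 to 1195 in CON (median 1151) and 1180 to 1475 in PEA (median 1347), with overlap, a log2 fold change of 0.27 ± 0.07 (SE; adjusted p = 0.0199, edgeR). The P3h1 call was lost without PEA replicate 2, 5 or 6 (adjusted p up to 0.0553), while those of P3h2 and P3h3 held without any single library. The other 9 tested genes, among them the collagen chaperone Serpinh1 and the P3h1 partners Crtap and Ppib, did not pass. The list held 4 to 5 calls over the settings and single libraries left out, apart from 3 without CON replicate 5 or 6 or PEA replicate 2, 4 or 5 and 2 without PEA replicate 6. The share of all genes called was 6.01% to 7.54% in the fits with 3 calls and 5.89% in that with 2.

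Of the substrates, 2 of 7 tested were called higher and none lower, beside 6.31% of all genes called higher (median log2 fold change 0.12). Col1a2, a chain of fibrillar type I collagen, had 8289 to 13429 normalized counts in CON (median 11300) and 12413 to 14039 in PEA (median 13416), a log2 fold change of 0.28 ± 0.09 (SE; adjusted p = 0.0456, edgeR). Col5a2, a chain of the type V collagen that starts fibrils, had 9372 to 12963 in CON (median 11730) and 12447 to 14908 in PEA (median 13566), a log2 fold change of 0.23 ± 0.07 (SE; adjusted p = 0.0467, edgeR). For both genes the groups overlapped, and CON replicate 3 was the lowest and CON replicate 2 the highest CON library, as for Loxl3. Neither call held without CON replicate 1, 3, 5 or 6 or PEA replicate 2, 4, 5 or 6 (adjusted p up to 0.113), and that of Col1a2 was also lost without PEA replicate 3. Eln, the elastin substrate of Loxl1, was at most 3.47 normalized counts in any library and was not tested.

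The copper transporters and matrix proteins that supply or bind lysyl oxidase gave no call in edgeR among 8 genes tested (median log2 fold change 0.12), with 2 at an unadjusted p below 0.05 (27.4% of all genes) and 0 called by DESeq2 or limma-voom. Without CON replicate 2, 1 of the 8 was called, beside 16.7% of all genes, and without CON replicates 2 and 3 together, 2 of the 8, beside 13.2%. Procollagen secretion and processing gave no call in edgeR among 10 genes (median log2 fold change 0.06), with 1 at an unadjusted p below 0.05 (27.4% of all genes) and 0 called by DESeq2 or limma-voom. In the hypoxia response, a programme that includes P4ha1, P4ha2, Plod1, Plod2 and Lox among its known targets, 3 of 21 genes were called lower and none higher (4.74% of all genes were lower), with a median log2 fold change of -0.18. Of the 21, 15 had a log2 fold change below 0, and 12 had an unadjusted p below 0.05 in either direction (27.4% of all genes, edgeR). The 3 called genes were Egln3, a prolyl hydroxylase of HIF itself (-0.28 ± 0.07, adjusted p = 0.0170), the glycolytic enzyme Aldoa (-0.21 ± 0.05, adjusted p = 0.0242) and Ndrg1 (-0.35 ± 0.10, adjusted p = 0.0316; SE, edgeR).

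Egln3 had 5206 to 6572 normalized counts in CON (median 5808) and 4209 to 5378 in PEA (median 4748), Aldoa 30798 to 37846 and 28605 to 31305, and Ndrg1 2635 to 4688 and 2645 to 3068. The groups overlapped for each gene. The Egln3 call held without any single library (adjusted p up to 0.0490). The Aldoa call was lost without CON replicate 5 or 6 or PEA replicate 2, 4, 5 or 6, and that of Ndrg1 without CON replicate 5 or 6 or PEA replicate 1, 2, 4 or 5 (adjusted p up to 0.0634 and 0.0737). The count of called hypoxia genes was 1 without CON replicate 5 or 6 or PEA replicate 2, 4 or 5, and 7 without CON replicate 2. The share of all genes called was 6.01% to 7.54% in the former fits and 16.7% in the latter. The share did not always move with the count, which was 5 without CON replicate 3, beside 8.58% of all genes. For 16 of the 21 genes CON replicate 3 was the highest CON library, whereas it was the lowest for Loxl2 and Loxl3.

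Of 11 tested genes of the response to TGF-β, a growth factor that induces matrix genes, 1 was called higher and none lower, near the 6.31% of all genes called higher (median log2 fold change -0.05). Ltbp2, a matrix protein related to the binding proteins of latent TGF-β, had 2830 to 3793 normalized counts in CON (median 3095) and 3399 to 3978 in PEA (median 3842), a log2 fold change of 0.22 ± 0.07 (SE; adjusted p = 0.0480, edgeR). That call held only without CON replicate 1 or 2 or PEA replicate 6 and was lost without any other single library, with an adjusted p of up to 0.105. It also missed the threshold with median-of-ratios size factors (0.0512) and with no filter on low counts (0.0530), 2 of the 7 other fits (0.0247 to 0.0530).

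**Figure D5:**
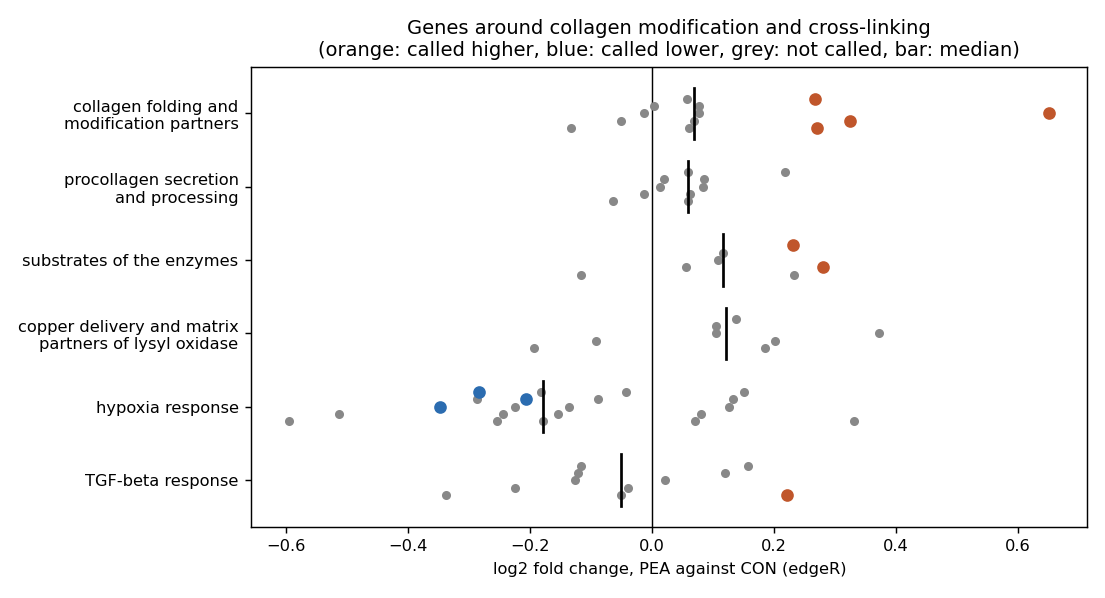
Log2 fold change of PEA against CON (x axis) of the tested genes in 6 lists around collagen modification and cross-linking (rows), each point a gene and each bar the list's median, with orange for genes called higher and blue for genes called lower. Orange points stand in the folding, substrate and TGF-β lists, blue ones only in the hypoxia list, whose median is -0.18.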

How the data were processed

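RNA-seq was performed by the authors on poly-A RNA from C2C12 myotubes, with 6 libraries per treatment, on a kit that does not mark strand. Reads were aligned with STAR to mm39 and quantified to genes in Partek Flow. The authors deposited estimated counts without normalization in 1 table, after a filter whose rule is not given in the sources used here, and each of the 16382 genes had a total of at least 10. The other deposited table gives a linear signal, obtained by scaling each library's estimated counts with its DESeq2 size factor. PEA replicate 2 and its top-up run share 1 set of values and were counted as 1 library. Whether counting used strand is not given in the sources used here.

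Members were matched by symbol to GENCODE vM39 (GRCm39), 10 of 10. Estimated counts were rounded and tested with edgeR 4.0.16 in R 4.3.3 (quasi-likelihood test, TMM, the default filter on low counts, 13142 genes, Benjamini-Hochberg, threshold 0.05), and the steps were tested on simulated data. Ratios were compared in Python 3.11.15. The members and lists were chosen with earlier results of these data known. The text names every member, P4hb and P4ha3, the 3 called genes with the smallest p in each other list, and the 5 genes most like Lox. Alternatives were DESeq2 1.42.0, limma 3.58.1 (voom, and on log2 of the normalized counts plus 1), median-of-ratios size factors, no filter, at least 10 counts in every library, the replicate number as a block and each library left out in turn. Leaving out CON replicates 2 and 3 together was added after seeing the data.

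Totals were 12354845 to 50397444 estimated counts, the edgeR biological coefficient of variation was 0.106, and errors reflect sampling of reads and variation among these libraries alone. Library pairs within a group differed by 3.65 to 39.7 times the sampling variance, so none was treated as a library deposited more than once. This does not show that duplicate wells are independent. Colgalt2, Tll2, Tcf21, Adgre1 and Adipoq were not analysed here.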

Additional observations from a re-analysis of the deposited data

Results flagged for a closer look

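Among the 20 sets of 6 libraries formed by the 10 members and both treatments, 2 held a library that stood apart by Dixon's criterion (a large gap to the nearest library for the range), and chance flags about 1 in 20 such sets. Loxl4 in PEA replicate 3 had 103 normalized counts, the lowest of a PEA range that reached 158, with a gap of 0.730 of that range. P4ha1 in PEA replicate 3 had 4930 normalized counts, the highest of its group, with a gap of 0.685 of the range. Without that library, the log2 fold change was 0.23 for Loxl4 (adjusted p = 0.220) and -0.15 for P4ha1 (adjusted p = 0.0388, edgeR).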

How the results depend on the processing

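The count of called members other than Lox was 2 of 9 in the primary fit and 2 or 3 under the other settings, except 1 with no filter on low counts, where P4ha1 was lost (adjusted p = 0.0644). It ranged from 1 to 3 with each library left out in turn, while the share of all genes called ranged from 5.89% to 16.7%. Loxl3 stayed called in every one of these fits. The replicate numbers did not pair the libraries (correlations of same-numbered deviations between -0.083 and 0.065, and 0 of 6 CON libraries correlated best with their own number). With the replicate block, the count of called members was 2, with Loxl2 called (adjusted p = 0.0260) and P4ha1 not (0.0620), and the log2 difference of -0.18 in the P4ha1 to P4ha2 ratio had an exact sign-flip p of 0.0625 (0.125 adjusted over the 2 ratios), where 0.0312 is the smallest possible before adjustment. With single libraries left out that difference ranged from -0.212 to -0.152. The log2 difference of the Plod2 to Plod1 ratio ranged from -0.0261 to 0.0418 with single libraries left out. The log2 fold changes of Loxl1 (-0.0393 to 0.0222), Plod1 (-0.0275 to 0.00788) and Plod2 (-0.0270 to 0.0280, and 0.00094 with at least 10 counts in every library) crossed 0 without reaching the threshold. Hypoxia calls were 5 of 21 with DESeq2 or the replicate block and copper and matrix partner calls 1 of 8 with the replicate block (14.5% of all genes were called with DESeq2 and 11.9% with the block), and TGF-β calls ranged from 0 to 3 of 11 over the other settings, with 0 under median-of-ratios size factors (11.2% of all genes called) and no filter on low counts (8.08%). The causes of these differences were not tested. Counts were lowest for Loxl4, at 78 to 288 estimated counts per library.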
